A study of Mus musculus with 16 samples.

Results

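The BCL2 family genes considered here were Mcl1, Bcl2l1, Bcl2, Bcl2a1a, Bcl2a1b, Bcl2a1d, Bax, Bak1, Bid and Bcl2l11, 10 of the 20200 genes in the count table, taken by gene symbol. All 10 passed the filter on low values, as did 12031 genes in all; Bcl2, Bax, Bcl2a1a and Bcl2a1d passed it through only some of the groups, and Bcl2a1b only through day 1 neutrophils, where it was highest. The libraries came from wild-type C57BL/6 male mice aged 12 weeks at anterior cruciate ligament reconstruction (ACLR), in which a flexor tendon is passed through tunnels drilled in femur and tibia. Cells from the tissue between graft and bone were sorted on day 1 or day 14 after surgery into CD9+ macrophages, CX3CR1+ macrophages (F4/80+ cells lacking CD9), F4/80- myeloid cells and Ly6G+ neutrophils, giving 8 groups of 2 libraries each. Per the study, the harvest included a sliver of underlying bone, so some cells could come from bone around the tunnel. Every library was a pool of several mice, all mice had undergone surgery, and cells were released with collagenase and dispase before sorting. The few cells positive for both CD9 and CX3CR1 fell within the CD9+ gate. The study used too few mice for a separate pool behind each library, so populations of the same day shared mice, and their libraries carry shared numbers in the labels. Whether the pools of a group came from separate days of surgery is not given in the sources used here, and the p-values given below measure the spread between pools only.

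Cells die by the mitochondrial route when BAX or BAK1 form pores in the outer mitochondrial membrane and let cytochrome c escape. The survival proteins BCL2, BCL-XL (the product of Bcl2l1), MCL1 and A1 (the products of the Bcl2a1 paralogs) hold these pore formers back, and the BH3-only proteins BIM (Bcl2l11) and BID bind the survival proteins or activate the pore formers. Neutrophils are known for their short life and for their reliance on MCL1 and A1, which are themselves short-lived proteins, whereas macrophages persist longer in tissue.

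The stretches of the family that match a pattern of the BH3 core are shown first, for survival and death genes alike. In death proteins the BH3 core is the short helix that docks into the groove of survival proteins. It was located in the longest coding region of each gene as a leucine codon followed, after any 3 codons, by a glycine and an aspartate codon. The pattern was present once in 7 of the 10 genes and in 13.3% of 21562 mouse coding regions, so it is not particular to the family. Each stretch of 27 bases is given in the sense of the gene, with the glycine and aspartate codons in capitals.
Mcl1: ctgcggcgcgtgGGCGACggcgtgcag
Bcl2l1: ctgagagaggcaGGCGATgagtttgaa
Bcl2: ctccgccgggctGGGGATgacttctct
Bax: ctccggcgaattGGAGATgaactggac
Bak1: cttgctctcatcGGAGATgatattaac
Bid: ctcgcccaaataGGCGATgagatggac
Bcl2l11: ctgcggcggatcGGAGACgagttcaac
On mm10 these lie at chr3:95659436-95659462 (plus strand), chr2:152829697-152829723 (minus), chr1:106712575-106712601 (minus), chr7:45465997-45466023 (minus), chr17:27022531-27022557 (minus), chr6:120897289-120897315 (minus) and chr2:128147150-128147176 (plus), in the order printed, and all are exonic and coding. The exact letters of the pattern were not found in the 3 Bcl2a1 paralogs.

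The Bcl2a1 paralogs need their sequences for another reason, since their reads are hard to tell apart. All 3 lie on mouse chromosome 9 and have coding regions of 516 bases without the stop codon. Bcl2a1a and Bcl2a1b differed at 11 of these bases, Bcl2a1a and Bcl2a1d at 7, and Bcl2a1b and Bcl2a1d at 6. The first 120 coding bases hold 7 of the 12 positions at which any of the 3 differ, shown in capitals.
Bcl2a1a: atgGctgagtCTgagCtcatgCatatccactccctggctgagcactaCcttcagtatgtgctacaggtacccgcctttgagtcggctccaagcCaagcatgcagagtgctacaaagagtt
Bcl2a1b: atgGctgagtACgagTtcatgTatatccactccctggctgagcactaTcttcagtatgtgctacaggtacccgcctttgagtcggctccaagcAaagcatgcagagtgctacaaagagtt
Bcl2a1d: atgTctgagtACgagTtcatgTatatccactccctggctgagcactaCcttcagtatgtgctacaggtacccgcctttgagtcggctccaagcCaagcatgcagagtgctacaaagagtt
These stretches are at chr9:88957051-88957170 (plus strand), chr9:89199360-89199479 (plus) and chr9:88731600-88731719 (minus) on mm10. Of the runs of 100 bases in the annotated transcripts, 56.5% for Bcl2a1a, 43.2% for Bcl2a1b and 45.3% for Bcl2a1d occurred in no transcript of another gene on either strand, against 100% for Mcl1, Bcl2l1 and Bcl2l11. Read length and the treatment of reads with several matches are not given in the sources used here. The levels of single paralogs are therefore uncertain, and the summed count of the 3 genes was tested beside them. Exons of other annotated genes also cover 49.1% of the exon bases of Bcl2a1b (Gm29094, same strand), 25.5% of Bak1 (Ggnbp1, opposite strand), 17.7% of Bid (Bcl2l13, opposite strand), 12.2% of Bax (Gm45808, same strand) and 6.09% of Bcl2 (D630008O14Rik, opposite strand).

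Levels are given as CPM, the gene's reads as a rate of the library's total after scaling by the trimmed mean of M values (TMM), and differences as log2 fold changes with their standard error (SE). A gene was called when its Benjamini-Hochberg adjusted p in the edgeR quasi-likelihood test was under 0.05 and its change at least 1 log2 unit. Library totals ran from 9233952 to 19814119 counts. Markers of the labelled populations were looked up: Adgre1, which encodes F4/80, lay between 119.7 and 216.3 CPM in the macrophage libraries and between 8.48 and 41.5 CPM elsewhere, and Ly6g lay between 77.7 and 283.4 CPM in neutrophils and at most at 10.4 CPM elsewhere. Cx3cr1 lay between 135.0 and 298.6 CPM in CX3CR1+ macrophages, but was also present in CD9+ macrophages at 72.6 to 107.3 CPM. Cd9 RNA was not highest in the CD9+ libraries, at 140.9 to 183.1 CPM against 6.62 to 21.3 CPM in CX3CR1+ macrophages, 107.8 to 124.0 CPM in F4/80- cells and 338.5 to 644.4 CPM in neutrophils. Some libraries stood apart. The CD9+ libraries of day 1 were the least alike pair, with a correlation of log2 CPM over genes of 0.936 against 0.976 to 0.988 in the other groups, and the summed level of 9 neutrophil markers was 12250 CPM in the first and 4070 CPM in the second. Eosinophil markers, 4 genes, summed to 5769 and 9369 CPM in CD9+ macrophages on day 14 against 488.2 and 547.1 CPM on day 1, and neutrophil markers summed to between 21740 and 28550 CPM in F4/80- cells and to 12850 and 8709 CPM in CD9+ macrophages of day 14.

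**Figure D1:**
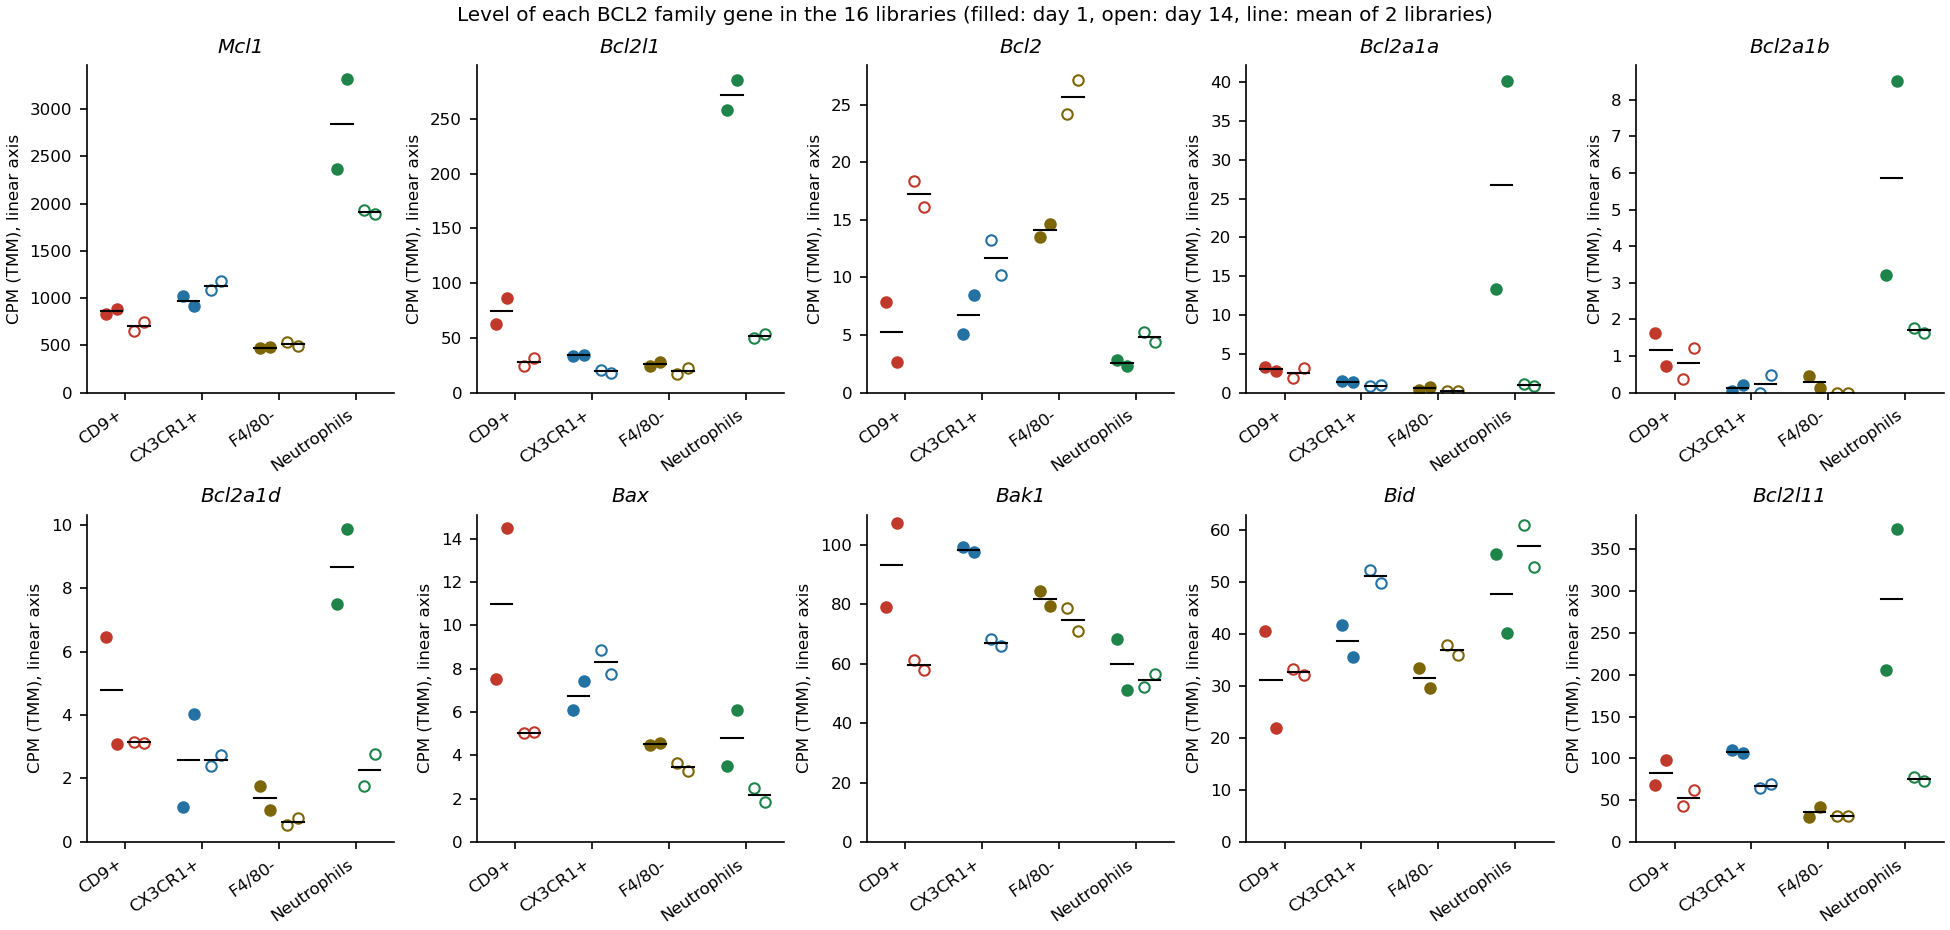
Level of the 10 BCL2 family genes in each library, in CPM after TMM scaling on a linear axis from 0, by sorted population; filled points are day 1, open points day 14 and lines the mean of 2 libraries. Neutrophils of day 1 held the highest levels of Mcl1, Bcl2l1, Bcl2l11 and Bcl2a1a, and F4/80- cells of day 14 the highest level of Bcl2.

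Mcl1 was the most abundant member in every group when levels were divided by exon length. It reached 832.3 CPM per kb in day 1 neutrophils and was lowest, at 139.3 CPM per kb, in day 1 F4/80- cells. Mcl1 made up between 69.9% and 89.3% of the summed level per length of the 10 genes. Bak1 came second in 7 of the 8 groups, between 22.6 and 40.9 CPM per kb, and Bcl2l1 came second in day 1 neutrophils at 59.3 CPM per kb. With the length of the longest transcript instead, Bid came before Bak1 in day 14 neutrophils (23.6 and 22.8 CPM per kb), and their libraries overlapped. In each group the lower library of the leading gene was above the higher library of the gene in second place. Further down the order neighbours often overlapped: in CD9+ macrophages of day 1 the libraries of Bcl2l11, Bid, Bax, Bcl2a1d and Bcl2a1a overlapped from each gene to the next. Bcl2 was among the last 3 genes in 7 groups and reached 2.80 CPM per kb at most, in F4/80- cells of day 14. The levels of the Bcl2a1 paralogs in this order depend on how shared reads were counted.

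**Figure D2:**
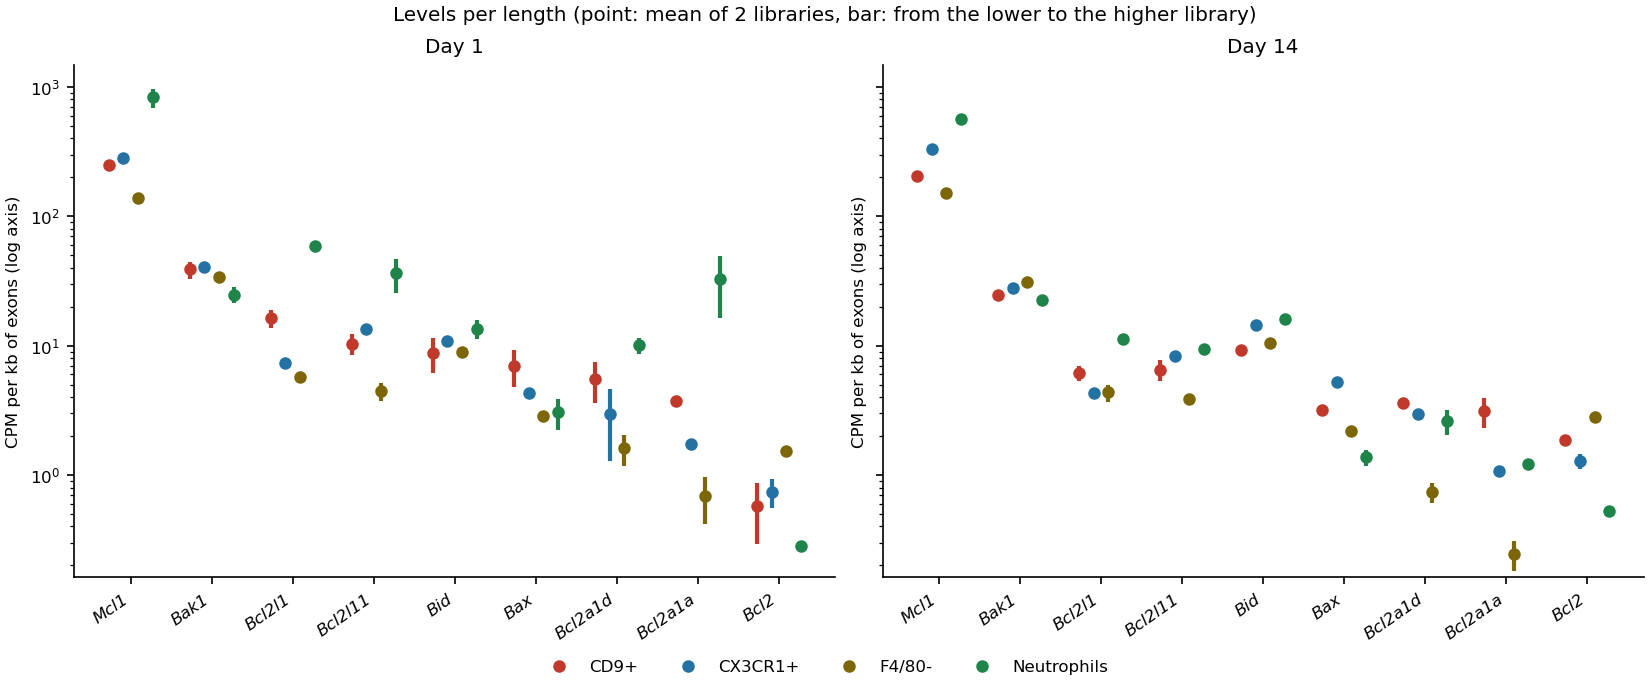
Level per kilobase of exon of 9 genes in each population on day 1 and day 14, on a log axis; points are means of 2 libraries and bars run from the lower to the higher library, and Bcl2a1b is left out because some groups held no count. Mcl1 lay above every other gene in all 8 groups, and the spread between populations was widest for Bcl2a1a.

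The first question was whether the family changed between day 1 and day 14 within a population. Neutrophils changed most: 5 of the 10 genes were called, all lower on day 14. Over all genes tested 14.2% were called there and 10.5% were lower. Of the 5, Bcl2a1a and Bcl2a1d share reads, and the calls of Bax and Bcl2a1d did not hold under all alternatives, as given below. In CD9+ macrophages 3 genes were called, with 8.16% called over all genes. The calls of Bcl2 and Bax there were lost when only the CD9+ libraries were fitted. In CX3CR1+ macrophages and in F4/80- cells no member was called by the edgeR quasi-likelihood test, against 5.89% and 3.31% of all genes. In those populations 4 and 2 members had an unadjusted p under 0.05. Averaged over the 4 populations, Bcl2 was higher and Bcl2l1 and Bcl2a1a were lower on day 14, with 7.94% of all genes called. The test of this mean took the libraries of a day as independent, although populations of a day shared mice. The Bcl2a1a mean was carried mostly by neutrophils (log2 change -4.75). Its changes of -0.25 in CD9+ macrophages, -0.70 in CX3CR1+ macrophages and -1.48 in F4/80- cells were not called. The median log2 change over the 10 genes was -1.46 in neutrophils, -0.60 in CD9+ macrophages, 0.12 in CX3CR1+ macrophages and -0.28 in F4/80- cells, while the median over all genes tested lay between 0.0078 and 0.040. The neutrophil median includes Bcl2a1b (-1.78), which was kept only because it was high in day 1 neutrophils. It also counts paralogs that share reads as separate genes, so it is given as a description only. Since RNA was pooled from many cells, fewer expressing cells and less RNA per cell cannot be told apart in any of these values.

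Bcl2l1, which encodes the survival protein BCL-XL (chr2:152780668-152831728), fell in both neutrophils and CD9+ macrophages. In neutrophils it was at 258.1 and 285.4 CPM on day 1 and at 49.9 and 53.1 CPM on day 14. Each day 1 library was above both day 14 libraries by a wide margin, a fall of 5.27-fold (log2 change -2.40, SE 0.188, adjusted p = 3.1e-07). The call held under all alternatives. In CD9+ macrophages it was at 62.7 and 86.5 CPM on day 1 and at 24.5 and 31.9 CPM on day 14, again without overlap (2.64-fold, log2 change -1.40, SE 0.188, adjusted p = 0.00018). In CX3CR1+ macrophages the values were 33.9 and 34.0 CPM on day 1 and 20.9 and 18.4 CPM on day 14. The groups did not overlap and the adjusted p was 0.012, but the change of -0.79 (SE 0.189) was under 1 log2 unit. In F4/80- cells, at 24.1 and 27.9 CPM on day 1 and 16.9 and 22.9 CPM on day 14, the change did not pass the test (-0.39, SE 0.188, adjusted p = 0.27).

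Bcl2, the founding survival gene of the family (chr1:106538178-106714274), moved the other way. In CD9+ macrophages it was at 7.87 and 2.67 CPM on day 1 and at 18.3 and 16.1 CPM on day 14, a rise of 3.18-fold (log2 change 1.67, SE 0.374, adjusted p = 0.0070). The day 1 libraries differed from each other by more than the day 14 libraries did, and the change was 2.66 without the first and 1.13 without the second of them, both still called. Without the first day 14 library the call was lost (log2 change 1.54). It was also lost when only the CD9+ libraries were fitted. The libraries of the other populations also did not overlap between days. They went from 5.07 and 8.46 to 13.2 and 10.2 CPM in CX3CR1+ macrophages, from 13.5 and 14.7 to 24.2 and 27.2 CPM in F4/80- cells, and from 2.85 and 2.34 to 5.30 and 4.39 CPM in neutrophils. Their log2 changes of 0.80 (SE 0.362), 0.86 (SE 0.347) and 0.89 (SE 0.422) did not pass the test, with adjusted p of 0.17, 0.17 and 0.13. The mean change over the 4 populations did pass it (1.05, SE 0.188, adjusted p = 0.00046), with libraries that shared mice taken as independent. The mean went below 1 log2 unit without the second CD9+ library of day 1 (0.92). The same held without the first CX3CR1+ library of day 1 (0.95) or of day 14 (0.98). Eosinophil markers rose with Bcl2 in CD9+ macrophages, as given above, and their part in the rise was not tested.

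The Bcl2a1 paralogs, which encode the inducible survival protein A1, showed the widest range of all members. The summed paralogs were at 24.1 and 58.5 CPM in day 1 neutrophils and at 4.59 and 5.31 CPM on day 14. The day 1 libraries differed from each other by more than the whole day 14 level, and both were above it, an 8.31-fold fall (log2 change -3.06, SE 0.459, adjusted p = 0.00016). Leaving out the second day 1 library gave a log2 change of -2.28, still called. Most of these counts were assigned to Bcl2a1a, at 13.4 and 40.2 CPM on day 1 and at 1.06 and 0.919 CPM on day 14 (log2 change -4.75, SE 0.580, adjusted p = 2.5e-05). Bcl2a1d, at 7.49 and 9.85 CPM on day 1 and 1.77 and 2.76 CPM on day 14, was called too (-1.93, SE 0.582, adjusted p = 0.022). Its call was lost without the second day 1 library (-1.72) or either day 14 library (-1.65 and -2.29). Bcl2a1b, at 3.21 and 8.52 CPM against 1.77 and 1.63 CPM, did not pass the test (-1.78, SE 0.851, adjusted p = 0.14). In the other populations the summed paralogs ranged from 1.94 to 11.4 CPM on day 1 and from 0.671 to 7.58 CPM on day 14, with no change past the threshold. In F4/80- cells of day 14 Bcl2a1b had no count in either library, and Bcl2a1a had 5 counts in all.

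Mcl1 (chr3:95658788-95663176) was not called over time in any single population. In neutrophils it was at 2368 and 3321 CPM on day 1 and at 1937 and 1894 CPM on day 14. The groups did not overlap and the adjusted p was 0.011, with a change of -0.57 (SE 0.151) that was under 1 log2 unit. In CD9+ macrophages it went from 833.4 and 884.1 to 655.9 and 748.9 CPM (-0.29, SE 0.151, adjusted p = 0.21). In CX3CR1+ macrophages it went from 1021 and 916.1 to 1083 and 1181 CPM (0.22, SE 0.151, adjusted p = 0.38). F4/80- cells held 471.8 and 480.5 CPM on day 1 and 532.3 and 497.1 CPM on day 14.

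Among the death genes, Bcl2l11, which encodes BIM (chr2:128126038-128162547), fell in neutrophils. It was at 205.7 and 374.6 CPM on day 1 and at 78.1 and 72.7 CPM on day 14, a 3.85-fold fall (log2 change -1.94, SE 0.257, adjusted p = 5.2e-05). The second day 1 library was far above the first, and without it the log2 change was -1.45 and still called. CX3CR1+ macrophages went from 109.5 and 106.8 to 64.1 and 69.0 CPM (-0.70, SE 0.25, adjusted p = 0.083). CD9+ macrophages went from 68.1 and 97.9 to 42.9 and 62.0 CPM (-0.66, SE 0.254, adjusted p = 0.088). Neither change passed the test, though the libraries of the days did not overlap. In F4/80- cells the level stayed between 29.8 and 41.3 CPM.

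Bax (chr7:45461697-45466898), the pore former held mainly in the cytosol of healthy cells, was a low gene here, between 1.84 and 14.5 CPM. In CD9+ macrophages it was at 7.52 and 14.5 CPM on day 1 and at 5.04 and 5.05 CPM on day 14 (log2 change -1.11, SE 0.367, adjusted p = 0.049). In neutrophils it was at 3.49 and 6.10 CPM on day 1 and at 2.47 and 1.84 CPM on day 14 (-1.15, SE 0.405, adjusted p = 0.045). Both calls stood at the edge of the threshold and were lost under 20 and 17 of the 28 alternatives. Without the second CD9+ library of day 1 the change there was -0.58, and without the second neutrophil library of day 1 or of day 14 that in neutrophils was -0.70 and -0.95.

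Bak1 (chr17:27019810-27029009), the pore former anchored in the mitochondrial membrane, and Bid (chr6:120891930-120916853), which links death receptors to mitochondria, were not called in any of the 20 comparisons. Bak1 went from 79.2 and 107.4 to 61.1 and 57.8 CPM in CD9+ macrophages (log2 change -0.65, SE 0.161, adjusted p = 0.012). It went from 99.2 and 97.6 to 68.4 and 65.8 CPM in CX3CR1+ macrophages (-0.55, SE 0.159, adjusted p = 0.033). Both changes had an adjusted p under 0.05 and were below 1 log2 unit. Over all libraries Bak1 spanned 2.10-fold and Bid 2.79-fold, against 7.04-fold for Mcl1 and 16.9-fold for Bcl2l1. Bid lay between 21.9 CPM, in the second CD9+ library of day 1, and 61.1 CPM, in the first neutrophil library of day 14, and none of its changes over time passed the test.

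**Figure D3:**
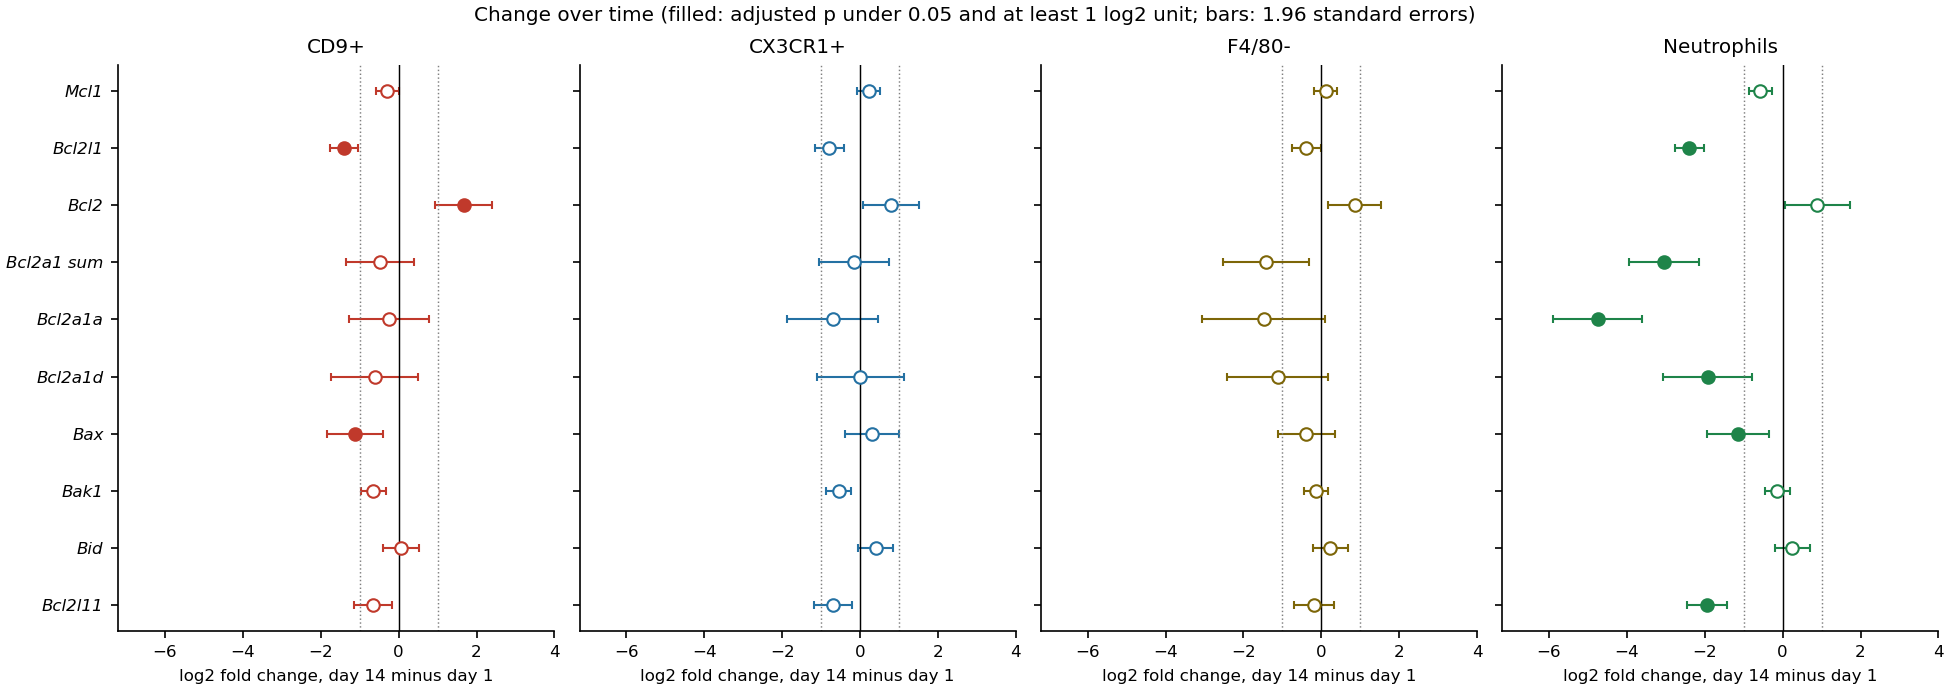
Log2 fold change from day 1 to day 14 in each population for 9 genes and the summed Bcl2a1 paralogs. Filled points passed the threshold and dotted lines mark 1 log2 unit. Bars are approximate 95% intervals taken from the SE with a normal value, narrower than those of the test itself. Bcl2l1, Bcl2l11, Bcl2a1a, Bcl2a1d and Bax were filled on the lower side in neutrophils, and Bcl2 was filled on the higher side in CD9+ macrophages.

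The second question was whether the change over time differed between populations, which was tested as the difference of changes. The change in neutrophils was set against the mean change of CD9+ and CX3CR1+ macrophages, and 3 of the 10 genes were called where 8.7% of all genes were. Bcl2a1a fell further in neutrophils (difference of log2 changes -4.27, SE 0.694, adjusted p = 0.00084), as did the summed paralogs (-2.74, SE 0.550, adjusted p = 0.0040). Bcl2l1, which fell in CD9+ macrophages as well, also fell further in neutrophils (-1.30, SE 0.224, adjusted p = 0.0013). Bcl2l11 differed by -1.26 (SE 0.307, adjusted p = 0.013). This call was lost without the second neutrophil library of day 1 (-0.77) and without the second of day 14 (-1.21). The changes of CX3CR1+ and CD9+ macrophages were not called as different for any member by the edgeR test, where 2.31% of all genes were called and 3 members had an unadjusted p under 0.05. F4/80- cells against the macrophages gave no called member either, with 0.823% called over all genes and 2 members with an unadjusted p under 0.05. Bax, which fell in CD9+ macrophages and stood at 6.10 and 7.41 CPM on day 1 and 8.87 and 7.76 CPM on day 14 in CX3CR1+ macrophages, had a difference of 1.42 (SE 0.509, adjusted p = 0.17), called without the first CD9+ library of day 1 (1.80).

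The third question was how the populations differed on the same day. More genes were called in the comparisons with neutrophils than in those among the other populations: 49.6%, 50.9% and 48.8% of all genes were called against CD9+ macrophages, CX3CR1+ macrophages and F4/80- cells on day 1, and 49.2%, 48% and 48.1% on day 14. Of the 10 family genes, 7 were called in each comparison on day 1, Bcl2a1b among them, and 3, 4 and 7 on day 14. The day 1 calls of Bcl2a1b had to follow from the filter, and the Bcl2a1 paralogs share reads. The counts of 7 are therefore not read as a result about the family. The comparisons share the neutrophil libraries. The share of the family called on day 14 against the macrophages was thus no higher than that of all genes.

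Mcl1 was higher in neutrophils than in every other population on day 1, by 3.31-fold over CD9+ macrophages (log2 difference -1.73, SE 0.155, adjusted p = 1.7e-07), 2.94-fold over CX3CR1+ macrophages (-1.55, SE 0.154, adjusted p = 4e-07) and 5.97-fold over F4/80- cells (-2.58, SE 0.160, adjusted p = 5.3e-09). On day 14 it was still 2.73-fold higher than in CD9+ macrophages and 3.72-fold higher than in F4/80- cells. The difference from CX3CR1+ macrophages was 1.69-fold on day 14 (log2 difference -0.76, SE 0.152, adjusted p = 0.00042) and was under 1 log2 unit. Whether it differed from that of day 1 was not tested for these populations alone. With scaling by library size alone the median of all genes moved by 0.317 to 0.567 toward higher values in the comparisons with neutrophils, and the day 14 difference between CD9+ macrophages and neutrophils was then -0.97.

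Bcl2l1 and Bcl2l11, a survival and a death gene, shared this pattern on day 1. Bcl2l1 was 3.65-fold, 8.0-fold and 10.4-fold higher in neutrophils than in CD9+ macrophages, CX3CR1+ macrophages and F4/80- cells, with adjusted p of 4.2e-07, 3.9e-09 and 2.9e-09. Bcl2l11 was 3.50-fold, 2.68-fold and 8.16-fold higher, with adjusted p of 1.6e-05, 0.00013 and 1.3e-07. On day 14 the Bcl2l11 levels of neutrophils, at 78.1 and 72.7 CPM, were close to those of CX3CR1+ macrophages at 64.1 and 69.0 CPM. The difference there was -0.18 (approximate 95% interval -0.68 to 0.32). They were still 2.41-fold above F4/80- cells (log2 difference -1.27, SE 0.260, adjusted p = 0.00051), a call that was lost with scaling by library size alone (-0.77). Bcl2l1 remained 2.62-fold higher than in CX3CR1+ macrophages and 2.59-fold higher than in F4/80- cells, and was 1.83-fold higher than in CD9+ macrophages (log2 difference -0.87, SE 0.188, adjusted p = 0.00081), under 1 log2 unit but called without the second CD9+ library (-1.06). Scaling by library size alone ended the day 14 calls of Bcl2l1 against CX3CR1+ macrophages (-0.93) and F4/80- cells (-0.87), and the day 1 call of Bcl2l11 against CX3CR1+ macrophages (-0.95). The last call also ended without the second neutrophil library of day 1 (-0.93).

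The summed Bcl2a1 paralogs were 4.55-fold, 10.1-fold and 18.3-fold higher in day 1 neutrophils than in CD9+ macrophages, CX3CR1+ macrophages and F4/80- cells (adjusted p = 0.00036, 1e-05 and 1.8e-06). On day 14 neutrophils, at 4.59 and 5.31 CPM, lay between CX3CR1+ macrophages, at 3.19 and 4.16 CPM, and CD9+ macrophages, at 5.42 and 7.58 CPM. Neither difference passed the test, with log2 values of 0.39 (approximate 95% interval -0.52 to 1.30) and -0.43 (-1.37 to 0.51). F4/80- cells were lowest, at 0.671 and 1.00 CPM, 5.91-fold below neutrophils and 7.74-fold below CD9+ macrophages (adjusted p = 0.00093 and 0.0019). They were also 4.38-fold below CX3CR1+ macrophages of that day (adjusted p = 0.0080), a call that was lost without the second CX3CR1+ library (1.93) or the first F4/80- library (1.86), and 4.03-fold below CD9+ macrophages on day 1 (adjusted p = 0.0042). Taken singly, Bcl2a1a was called higher in day 1 neutrophils than in all 3 other populations, and Bcl2a1d than in CX3CR1+ macrophages and F4/80- cells. Bcl2a1b was kept in the test only because it was high in that group, so its calls there had to follow and support nothing. The Bcl2a1d call against CX3CR1+ macrophages was lost without their first library (-1.09) or the second neutrophil library (-1.55). On day 14 all 3 paralogs were called lower in F4/80- cells than in neutrophils, and Bcl2a1b lower in CX3CR1+ macrophages. Of these, the Bcl2a1a call was lost without any 1 of its 4 libraries (-1.95 to -2.65), the Bcl2a1d call without either F4/80- library (-1.60 and -2.10) or the second neutrophil library (-1.47), and the CX3CR1+ call of Bcl2a1b without the first CX3CR1+ library (-1.84) or either neutrophil library (-2.77 and -2.89). For Bcl2a1b, with no count in F4/80- cells of day 14, the level was at least 7.17-fold higher in neutrophils and at least 3.36-fold higher in CD9+ macrophages of that day, taking 3 counts per library as the floor. For Bcl2a1a, 52 counts in CD9+ macrophages against 5 in F4/80- cells gave a ratio of scaled counts of 12.9 (exact 95% interval 5.20 to 41.5, counting error only).

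Bcl2 was ordered the other way, with neutrophils lowest and F4/80- cells highest on both days. F4/80- cells stood 5.39-fold above neutrophils on day 1 (log2 difference 2.43, SE 0.395, adjusted p = 6.4e-05) and 5.30-fold above on day 14 (2.41, SE 0.386, adjusted p = 5.9e-05). CD9+ macrophages were 3.56-fold above neutrophils on day 14 (1.83, SE 0.387, adjusted p = 0.00066). Their libraries of day 1 overlapped those of neutrophils, and the difference of 1.05 (SE 0.409, adjusted p = 0.032) was 0.044 without the first CD9+ library. It was also lost without either neutrophil library of that day (1.21 and 0.92). CX3CR1+ macrophages were 2.59-fold above neutrophils on day 1 and 2.42-fold above on day 14 (adjusted p = 0.0063 and 0.0091). The first of these calls was lost without the second CX3CR1+ library (0.98), the second without the first CX3CR1+ library (1.06) or the second neutrophil library (1.14). F4/80- cells were also above CX3CR1+ macrophages on both days, by 2.09-fold and 2.19-fold (adjusted p = 0.029 and 0.021), and above CD9+ macrophages on day 1, by 2.60-fold (adjusted p = 0.011). The day 1 difference from CX3CR1+ macrophages was lost without the first CX3CR1+ library of day 1 (-0.71) or either F4/80- library (-1.10 and -0.98), that of day 14 without any 1 of its 4 libraries (-0.96 to -1.34), and the difference from CD9+ macrophages without the second CD9+ library of day 1 (-0.84) or the second F4/80- library (-1.30).

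Bax was higher in macrophages than in neutrophils on day 14, by 3.86-fold in CX3CR1+ macrophages (log2 difference 1.95, SE 0.401, adjusted p = 0.00053) and 2.35-fold in CD9+ macrophages (1.23, SE 0.408, adjusted p = 0.015). The CD9+ call was lost without the second neutrophil library of day 14 (1.03). On day 1 the difference between CD9+ macrophages and neutrophils was 1.19 (SE 0.364, adjusted p = 0.0090), and the call was lost without the second CD9+ library (0.66) or the first neutrophil library (0.84). Bak1 was 1.56-fold and 1.64-fold higher in CD9+ and CX3CR1+ macrophages than in neutrophils on day 1 (adjusted p = 0.0024 and 0.00094), both under 1 log2 unit. Bid stood on day 14 at 33.3 and 32.1 CPM in CD9+ macrophages and 61.1 and 53.0 CPM in neutrophils (log2 difference -0.80, SE 0.231, adjusted p = 0.0063), under 1 log2 unit. On day 1 the same difference was -0.61 (adjusted p = 0.028), and it was called, at -1.12, without the first CD9+ library.

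**Figure D4:**
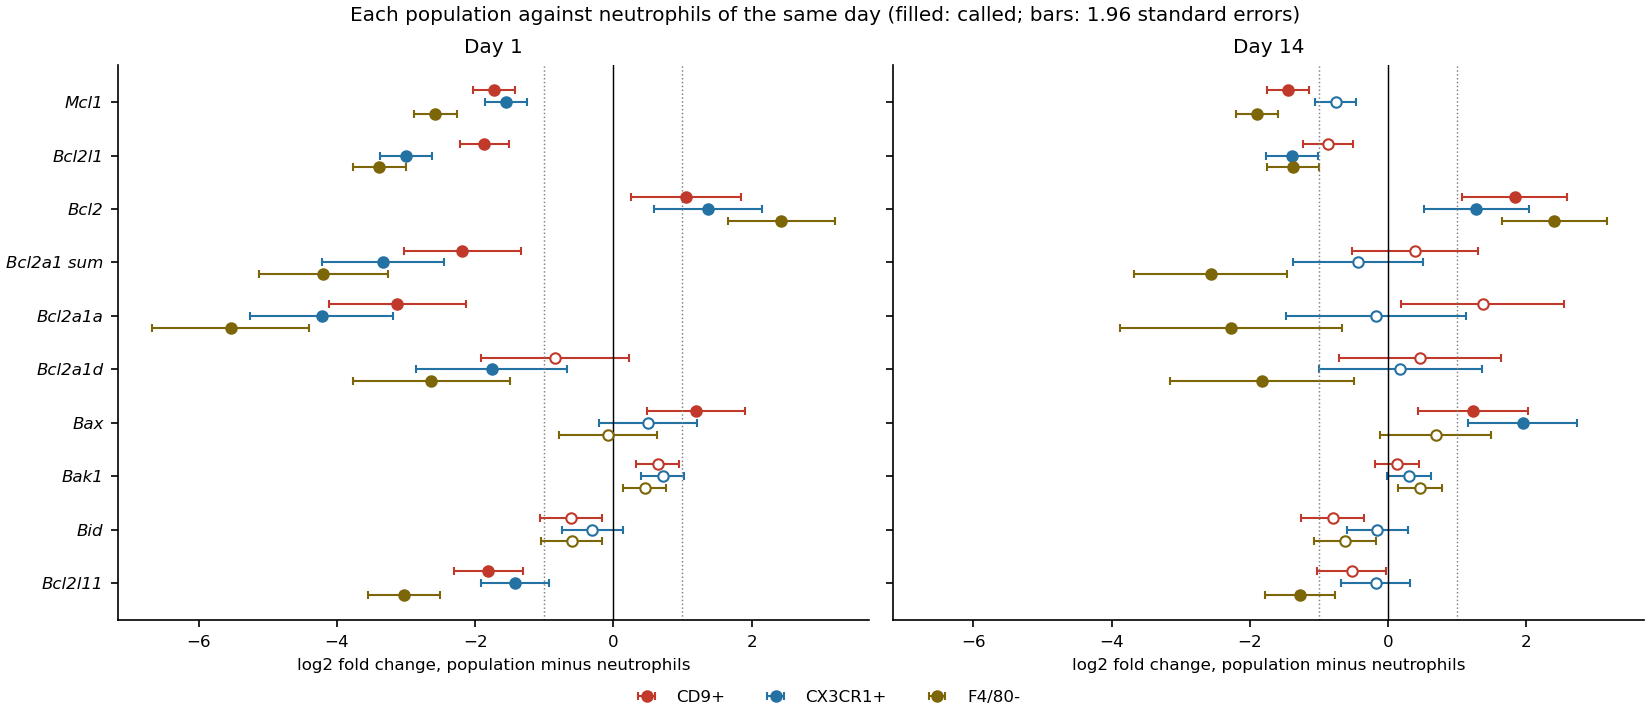
Log2 difference of each population from neutrophils of the same day, for 9 genes and the summed Bcl2a1 paralogs. Values below 0 are higher in neutrophils and filled points passed the threshold. Bars are approximate 95% intervals taken from the SE with a normal value, narrower than those of the test itself. On day 1 Mcl1, Bcl2l1, Bcl2l11 and the summed paralogs were filled below 0 for all 3 populations, and Bcl2 was filled above 0 for all 3 on both days.

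Between the 2 macrophage populations 1 of 10 members was called on day 1 and 0 on day 14, counts too small to be set apart from the share of all genes. On day 1 the member was Bcl2l1, at 62.7 and 86.5 CPM in CD9+ and 33.9 and 34.0 CPM in CX3CR1+ macrophages (2.19-fold, log2 difference 1.13, SE 0.182, adjusted p = 0.00060), with 8.15% of all genes called. Without the second CD9+ library, the 1 with fewer neutrophil marker counts, the difference was 0.89, and with scaling by library size alone it was 0.92, neither being called. On day 14 no member was called by the edgeR test, while 14.2% of all genes were and 4 members had an unadjusted p under 0.05. Mcl1 was lower in CD9+ macrophages by -0.69 (SE 0.152, adjusted p = 0.0031) and Bcl2l1 differed by 0.52 (SE 0.193, adjusted p = 0.059). The approximate interval of the Bcl2l11 difference ran from -0.84 to 0.16. Bcl2a1a, at 1.90 and 3.23 CPM in CD9+ and 0.798 and 0.946 CPM in CX3CR1+ macrophages, was 2.92-fold higher in the former (log2 difference 1.55, SE 0.594) and did not pass the test (adjusted p = 0.068). DESeq2 called it, and also called Bcl2a1b on day 1.

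Against F4/80- cells, CD9+ macrophages of day 1 were higher in Bcl2l1 (2.86-fold, adjusted p = 2.7e-05), Bcl2l11 (2.33-fold, adjusted p = 0.0023), Bax (2.42-fold, adjusted p = 0.015), Bcl2a1a (5.31-fold, adjusted p = 0.0050) and Bcl2a1d (3.46-fold, adjusted p = 0.030) and lower in Bcl2, 6 of 10 genes where 15.3% of all genes were called. The second CD9+ library carried some of these. Without it Bcl2l11 (0.94) and Bax (0.73) were no longer called. When only the compared libraries were fitted, the calls of Bcl2, Bax, Bcl2a1a and Bcl2a1d were lost. Leaving out the first CD9+ library ended the call of Bcl2a1d (1.16), and leaving out the first F4/80- library ended those of Bcl2a1a (1.957), Bcl2a1d (2.25) and Bax (1.27), while the second ended those of Bcl2a1d (1.46) and Bax (1.30). CX3CR1+ macrophages were higher than F4/80- cells in Mcl1 (2.03-fold on day 1 and 2.20-fold on day 14, adjusted p = 7.7e-05 and 2.8e-05) and in Bcl2l11 (3.04-fold and 2.13-fold, adjusted p = 0.00014 and 0.0036). The day 1 call of Mcl1 stood at the threshold of 1 log2 unit and was lost under 5 alternatives. These were DESeq2, every other scaling tried and leaving out the first CX3CR1+ library of day 1 (0.96). On day 14 they were also higher in Bax (2.40-fold, adjusted p = 0.015) and Bcl2a1d (4.01-fold, adjusted p = 0.028). The Bax call was lost without the first CX3CR1+ library (1.151) or either F4/80- library (1.35 and 1.17), and the Bcl2a1d call without any 1 of the 4 libraries (1.76 to 2.27). In all 3 and 5 members were called between these populations on the 2 days, with 21% and 21.3% of all genes called. On day 14 CD9+ macrophages and F4/80- cells differed in 2 members, Bcl2a1a and Bcl2a1d, with 7.6% of all genes called. The Bcl2a1a call was lost without the first F4/80- library (3.32) and the Bcl2a1d call without any 1 of the 4 libraries (2.06 to 2.57). Neutrophil markers were summed at 21740 CPM or more in F4/80- cells and basophil and mast cell markers at 494.8 to 891.8 CPM, and their part in these differences was not tested.

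Across the 8 group means, the genes whose log2 level ran most alike were Rhoa, Chmp3 and Thap6 for Mcl1 (Pearson's r 0.995, 0.992 and 0.991), Gnl1, Pip5k1a and Egr2 for Bcl2l1 (0.992, 0.990 and 0.985), Lpin2, Birc3 and Fhod1 for Bcl2l11 (0.981, 0.981 and 0.978) and Zcwpw1, Otub2 and Hist1h4n for Bcl2 (0.991, 0.984 and 0.980). These are the highest of 12031 genes over 8 points that share the same libraries, and are given as a description.

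Other genes of the death pathway are given by list, with the called genes named. Over time 8.16%, 5.89%, 3.31% and 14.2% of all genes tested were called in CD9+ macrophages, CX3CR1+ macrophages, F4/80- cells and neutrophils, and with lists of 9 to 16 genes the counts below are read as no result about a list. Of the other BCL2 family genes 9 of 16 were tested. Bnip3, a BH3-like gene of the mitochondrial membrane known for its induction by low oxygen, fell in all 4 populations. In neutrophils it was at 500.2 and 500.9 CPM on day 1 and at 17.6 and 18.1 CPM on day 14 (28.1-fold, log2 change -4.81, SE 0.153, adjusted p = 5.6e-11). In CD9+ macrophages it went from 85.0 and 79.2 to 15.97 and 15.5 CPM and in F4/80- cells from 24.8 and 26.6 to 5.07 and 4.51 CPM, falls of 5.22-fold and 5.34-fold. The fall was smallest in CX3CR1+ macrophages, at 2.43-fold, and smaller there than in CD9+ macrophages when the difference was tested (1.10, SE 0.199, adjusted p = 0.0071). Bbc3, which encodes the BH3-only protein PUMA, rose in CX3CR1+ macrophages from 3.87 and 4.18 to 12.6 and 13.2 CPM (3.21-fold, adjusted p = 0.0010). Bmf, another BH3-only gene, fell 2.14-fold in CD9+ macrophages (adjusted p = 0.034), from 16.03 and 40.68 to 11.41 and 14.85 CPM. This fall rests mainly on the second day 1 library, since the first lay close to the higher day 14 library.

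Of 16 genes tested in the mitochondrial machinery, which covers cytochrome c, the apoptosome and the caspases, 1 fell in CD9+ macrophages, 2 fell in neutrophils and none was called in CX3CR1+ macrophages or F4/80- cells by the edgeR test. Casp6, an effector caspase, fell 3.05-fold in CD9+ macrophages and 2.38-fold in neutrophils (adjusted p = 8.9e-05 and 0.0013), and Parp1, a substrate of caspases, fell 2.31-fold in neutrophils (adjusted p = 0.0027). The median log2 change of the list was -0.31 in CD9+ macrophages and 0.21 in neutrophils, against 0.016 and 0.032 over all genes tested.

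The inhibitors of apoptosis, 9 genes, held 1 called gene: Birc3, an inhibitor induced by NF-kB, fell in neutrophils from 389.3 and 437.9 to 143.2 and 134.8 CPM (2.98-fold, adjusted p = 3.7e-07). The death receptor arm, 10 genes, held 2, both lower in day 14 neutrophils. Fas, the receptor itself, fell 3.02-fold (adjusted p = 0.0023) and Cflar, which encodes the caspase 8 inhibitor FLIP, fell 2.07-fold from 331.8 and 549.9 to 217.5 and 208.7 CPM (adjusted p = 0.00067). Among 11 regulators of MCL1 and of the BH3-only genes, Cdkn1a, a p53 target that halts the cell cycle, fell 18.3-fold in neutrophils (adjusted p = 6e-10) and 2.97-fold in CD9+ macrophages (adjusted p = 1.2e-05), and Trp53inp1, another p53 target, rose 2.02-fold in neutrophils (adjusted p = 0.0022). Over the 5 lists and the 5 comparisons over time, the mean over populations included, 19 calls were made.

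**Figure D5:**
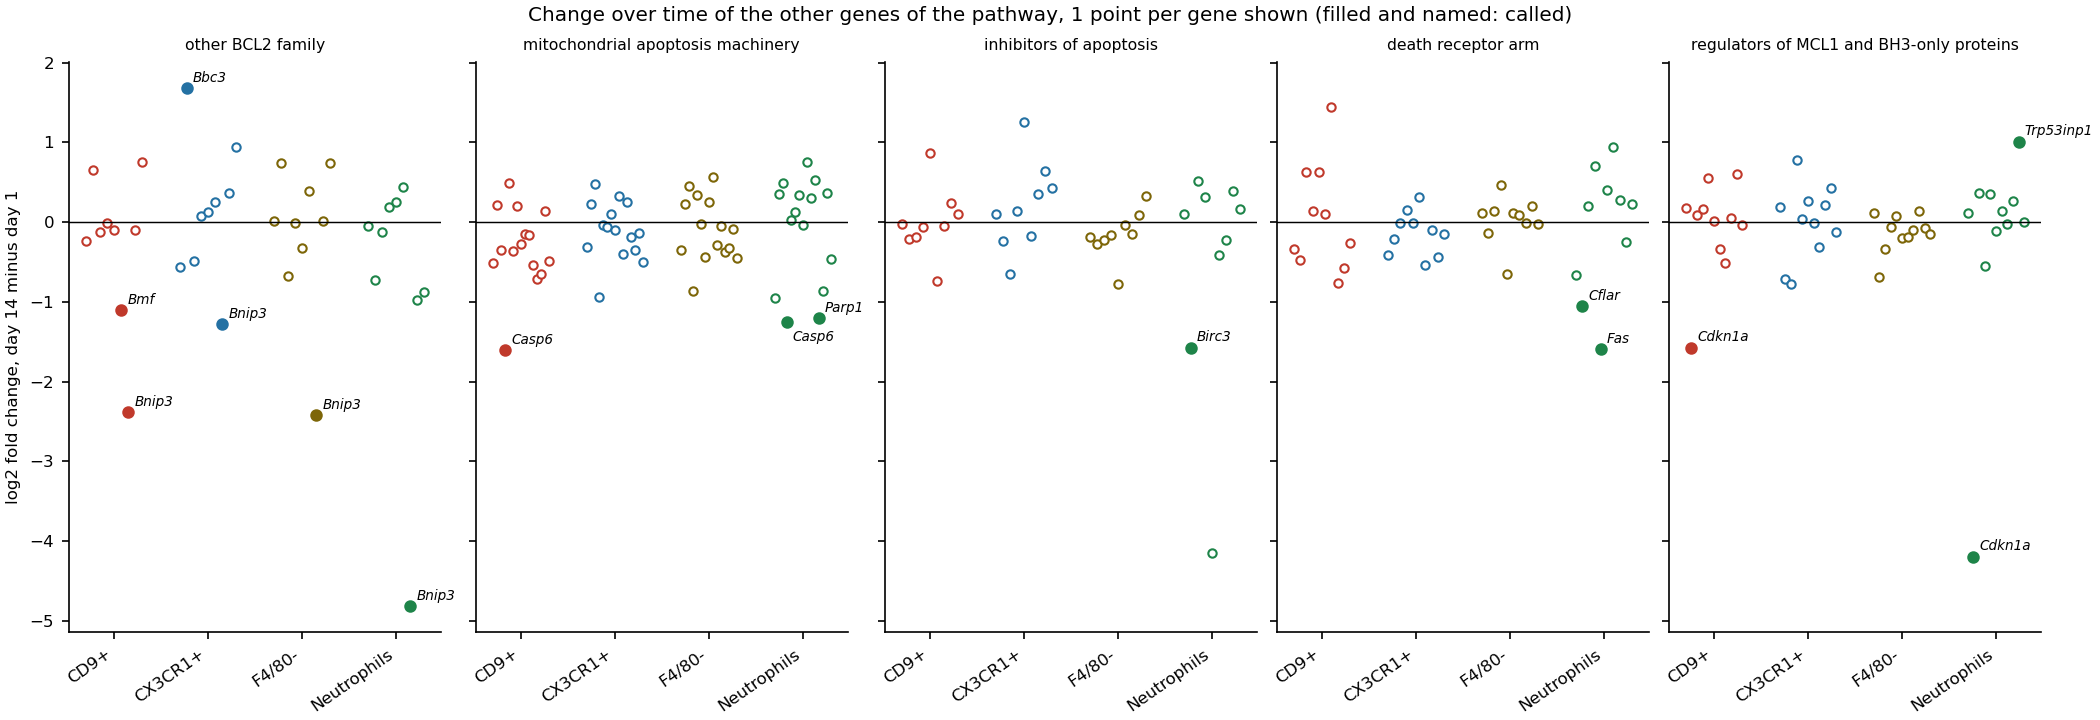
Log2 change from day 1 to day 14 of the other genes of the death pathway, 1 point for each gene shown, by list and population; filled and named points passed the threshold. Bnip3 was filled in all 4 populations and Cdkn1a in neutrophils and CD9+ macrophages, and most points lay within 1 log2 unit of 0.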

How the data were processed

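The deposited table holds raw counts of reads in exons per gene; per the labels and the study's methods, the authors prepared libraries with the SMART-Seq Stranded kit, read both ends, removed adapters with Cutadapt, aligned to mm10 with STAR and counted against Gencode. The strand setting and the handling of multi-mapped reads are not given in the sources used here. Nothing was normalized before deposit.

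Counts were scaled by TMM and genes kept with a group mean of at least 3 CPM in at least 1 of 8 groups, leaving 12031 of 20200. All 16 libraries entered 1 edgeR (4.0.16, R 4.3.3) quasi-likelihood fit with a mean for each group and 20 comparisons: 5 over time, 12 between populations and 3 differences of changes. All groups shared 1 estimate of a gene's spread, also the CD9+ libraries of day 1, which were the least alike pair. P-values were adjusted by Benjamini-Hochberg over all genes within a comparison. The SE is the absolute log2 change divided by the square root of F. Intervals of log2 values are approximate 95% intervals taken from this SE with a normal value, and are narrower than those of the test itself. The script was tested on simulated counts. Alternatives were DESeq2 (1.42.0), other scalings and filters, a replicate block, subsets of libraries, other thresholds and the summed Bcl2a1 count. With 2 libraries in a group, counting error is small except for the Bcl2a1 paralogs, Bax and Bcl2. Libraries of a day with the same number in the labels were taken to share a pool of mice, since the study's mice were too few for separate pools. Their deviations from the group means correlated weakly, with r of 0.0118 to 0.141 over genes. Days had different mice.

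The members, gene lists and tests were chosen with earlier results of these data known. The text names all 10 members, the called genes of each list with the 2 largest rises and falls in a comparison, and the 3 genes most like a member in pattern. Gene positions, exon lengths and sequences came from mm10 with a Gencode release other than the authors'. Protein sequences were not used here. 1 item of the lists is not reported here.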

Additional observations from a re-analysis of the deposited data

Results flagged for a closer look

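In 4 results the change from day 1 to day 14 differed between neutrophils and the mean of the CD9+ and CX3CR1+ macrophages, by an edgeR test of the difference itself. These were Bcl2a1a (-4.271 log2 units), the summed Bcl2a1 paralogs (-2.737), Bcl2l1 (-1.305) and Bcl2l11 (-1.264), each falling further in neutrophils. The first 2 share reads and are not separate results. In each of them the second neutrophil library of day 1 was above the first, and without it the differences were -3.275, -1.962, -1.23 and -0.768. Groups of 2 libraries were too small to look for single outlying samples.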

How the results depend on the processing

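The 10 genes were called 11 times over time, 52 times between populations and 3 times for differences of changes, and the summed Bcl2a1 paralogs 9 times. No direction of a called value reversed. Of 1680 values recomputed without 1 library, 92 lost and 4 gained a call, and of 1307 under other alternatives 52 lost and 19 gained one. These totals include values that were not called and so could not lose a call. For most values, most of the libraries left out were also not among those compared. The totals therefore understate how often a call rested on 1 of the compared libraries, as the losses given for single genes show. A filter in every group left 4 calls over time, 21 between populations and 0 for the summed paralogs, since it tests fewer genes. Without a threshold on the fold change the counts were 19 over time, and 66 and 327 for other pathway genes over time and between populations, against 19 and 188. Leaving out 1 library gave 8 to 11, 45 to 55, 2 to 5 (5 without the first CD9+ library of day 1) and 8 to 10 calls, and 17 to 22 and 175 to 199 for other pathway genes. With the replicate block within each day, where libraries are paired by their pools, the counts were 11, 53, 3 and 9; it gained 1 call, Bcl2a1a between CX3CR1+ macrophages and F4/80- cells on day 14, and changed no other call of the 10 genes. With the replicate block over all libraries, which also pairs different mice across days, the counts were 10, 55, 3 and 9. Mcl1 led in 8 groups under both gene lengths, and 70 of 80 ranks were the same. Scaling by library size alone moved the median of all genes by 0.317 to 0.567 in the comparisons with neutrophils. Depth limits the Bcl2a1 paralogs in F4/80- cells, and 2 libraries a group limit every test.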

Other observations

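Between populations, the lists of other death pathway genes held 188 calls over 12 comparisons, most of them against neutrophils. Of all genes tested, 48% to 50.9% were called in the comparisons with neutrophils and 7.6% to 21.3% in the others. The count is therefore read as no result about the lists. The genes named here were chosen after their values were seen, and the comparisons share the neutrophil libraries. Parp1 was lower in neutrophils in all 6 comparisons, by 3.55 to 4.84 log2 units, as were Casp6, Trp53, Huwe1 and Vdac3 by smaller amounts. Foxo3, a transcription factor that drives BH3-only genes, was higher in neutrophils in all 6, as were Trp53inp1, Cflar and Fas. The change over time of Cdkn1a also differed between neutrophils and macrophages (-3.05, SE 0.193, edgeR adjusted p = 1.7e-07).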
